A study of Mus musculus with 18 samples.

Results

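The tumour suppressor p53 is a transcription factor that is held at a low level by the ubiquitin ligase Mdm2 and accumulates when cells meet DNA damage or metabolic stress. It then switches on genes that stop the cell cycle, among them Cdkn1a, and also Mdm2 itself, which closes a negative feedback loop. Several of these growth arrest genes, such as Btg2 and the Gadd45 family, also respond to growth factors, cytokines and tissue handling without p53, and in the vessel wall they are known mainly as brakes on smooth muscle growth.

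The genes described here are 9 p53 targets and growth arrest genes: Cdkn1a, Trp53inp1, Gadd45a, Gadd45b, Gadd45g, Mdm2, Ccng1, Btg2 and Sesn1. They were taken by symbol, as every probe set annotated to 1 of these genes and to no other, which gave 19 of the 20380 single-gene probe sets on the array and 9 of the 12393 genes these represent. All 9 genes had a probe set bright enough to test, and 18 of the 19 probe sets passed the filter on low values (log2 above 4 in at least 3 samples).

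RNA came from aortas of male wild type C57Bl/6 mice, whose age the labels do not give. All mice, those of the vehicle groups included, had first received spironolactone, a blocker of the mineralocorticoid receptor, at 20 mg/kg/day for 5 days from a pellet under the skin. The aortas were then kept in organ culture in DMEM, either with vehicle or with 100 nM aldosterone, the natural ligand of that receptor, and were taken at 2, 4 or 8 h. Every treatment and time had 3 samples, each a pool of 3 aortas. The 18 samples include no aorta that was not cultured, so the earliest level of every gene is the one at 2 h.

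Values are log2 expression from 1-colour Affymetrix arrays, and differences are log2 differences ± standard error (SE). The probe set with the highest mean stands for its gene unless another is named. A difference was called where limma's p-value, adjusted by Benjamini-Hochberg over all 7092 genes tested, was under 0.05, and "rose" and "fell" are used only for called differences. Vehicle and aldosterone comparisons at one time share samples with the comparisons between times, so they are not independent of each other.

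The samples were aorta by their labels, and markers of vessel wall cells were present. All 11 smooth muscle genes listed passed the filter, led by Acta2, Tagln and Myh11, as did 10 of 11 endothelial and 8 of 8 fibroblast genes. Adipocyte markers (8 of 11) and macrophage markers (9 of 11) were present too, and of 8 lymphocyte markers only Ms4a1 passed. Correlations between samples ran from 0.838 to 0.994, and no arrays were identical. Vehicle 2 h replicate 1 stood apart, with 908 genes more than 1 log2 unit from its group mates against 17 to 239 in the other samples. The differences of the 9 genes between groups, and their averages over times, were therefore also fitted without it. That value is given too where leaving it out ended or made a call, turned a sign or moved a value by over 1.5 times. In whole tissue, fewer cells of a type and less RNA per cell cannot be told apart.

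Promoter windows of 250 bases before the annotated start, from RefSeq on GRCm38.p6, were read for 8 of the 9 genes, with a pair of starts for Cdkn1a and for Sesn1. No window for Trp53inp1 was used here. Each window was searched on both strands for the p53 decamer, the half-site that p53 binds in pairs, for the corticosteroid receptor half-site AGAACA and for the cyclic AMP response element TGACGTCA. The 4 windows below belong to genes whose values the results turn on, written 5′ to 3′ on the strand of the gene, with decamers in capitals in the first 3 and the cyclic AMP element in capitals in Btg2.
Cdkn1a upstream start, chr17:29090729-29090978, plus strand: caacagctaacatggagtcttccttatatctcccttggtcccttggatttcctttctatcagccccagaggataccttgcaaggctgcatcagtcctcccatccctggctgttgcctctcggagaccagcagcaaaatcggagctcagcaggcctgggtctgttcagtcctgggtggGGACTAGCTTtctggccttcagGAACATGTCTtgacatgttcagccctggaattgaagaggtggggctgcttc
Gadd45a, chr6:67037408-67037657, minus strand: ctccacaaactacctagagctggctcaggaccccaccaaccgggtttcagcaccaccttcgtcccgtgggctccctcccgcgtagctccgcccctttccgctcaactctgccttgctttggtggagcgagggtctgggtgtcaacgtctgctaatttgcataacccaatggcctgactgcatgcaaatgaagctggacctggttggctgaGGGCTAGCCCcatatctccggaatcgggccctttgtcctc
Sesn1 downstream start, chr10:41887189-41887438, plus strand: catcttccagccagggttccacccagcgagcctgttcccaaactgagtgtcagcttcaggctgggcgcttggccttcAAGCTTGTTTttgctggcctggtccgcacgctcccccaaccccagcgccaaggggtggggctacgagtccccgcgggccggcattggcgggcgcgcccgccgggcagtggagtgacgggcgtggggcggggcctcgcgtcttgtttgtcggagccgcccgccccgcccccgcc
Btg2, chr1:134079156-134079405, minus strand: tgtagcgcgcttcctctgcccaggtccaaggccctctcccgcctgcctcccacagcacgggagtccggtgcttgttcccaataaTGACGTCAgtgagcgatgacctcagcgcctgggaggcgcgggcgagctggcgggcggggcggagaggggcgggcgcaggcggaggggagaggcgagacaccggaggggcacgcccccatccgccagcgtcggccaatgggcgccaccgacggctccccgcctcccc
The decamer was found in 5 of the 10 windows and in 7.126% of the 32851 windows of all genes. Cdkn1a held GGACTAGCTT 73 bases and GAACATGTCT 51 bases before its upstream start. It was the only gene of these with a pair of decamers no more than 13 bases apart, an arrangement found in 0.06392% of all windows. Gadd45a held GGGCTAGCCC 40 bases before its start, Sesn1 AAGCTTGTTT 173 bases before its downstream start, Mdm2 GAACTTGCCT 186 bases and Ccng1 GGGCAAGCCT 185 bases before theirs. The corticosteroid half-site was in 0 of the 10 windows, against 16.08% of all windows, and the cyclic AMP element was in the Btg2 window, 166 bases before the start, against 1.546% of all windows. A match is a run of letters in a short window. The well-studied p53 elements of Mdm2 and Gadd45a lie in introns, outside these windows.

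The first question was whether aldosterone changed these genes at any single time. It did so for 2 genes, both at 8 h: Sesn1 rose and Gadd45a fell. Averaged over the 3 times, 2 others rose, Trp53inp1 by 2.11-fold and Cdkn1a by 1.27-fold. At 2 h, 0 of the 9 were called, where 0.0705% of all genes tested were. An unadjusted p under 0.05 in limma was found for 3 of the 9 and for 782 of all 7092 genes. At 4 h, 0 of the 9 were called against 0.240% of all genes, and 2 had an unadjusted p under 0.05, as did 267 of all 7092 genes. At 8 h, 2 of the 9 were called against 1.0% of all genes, and on average over times 2 of the 9 against 1.10%. The median difference of the 9 genes was 0.04, 0.16 and 0.26 at 2, 4 and 8 h, beside -0.07, 0.01 and 0.01 over all genes tested. The 9 genes were chosen with earlier results of these data known, so these shares and medians are no test of them as a group.

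**Figure D1:**
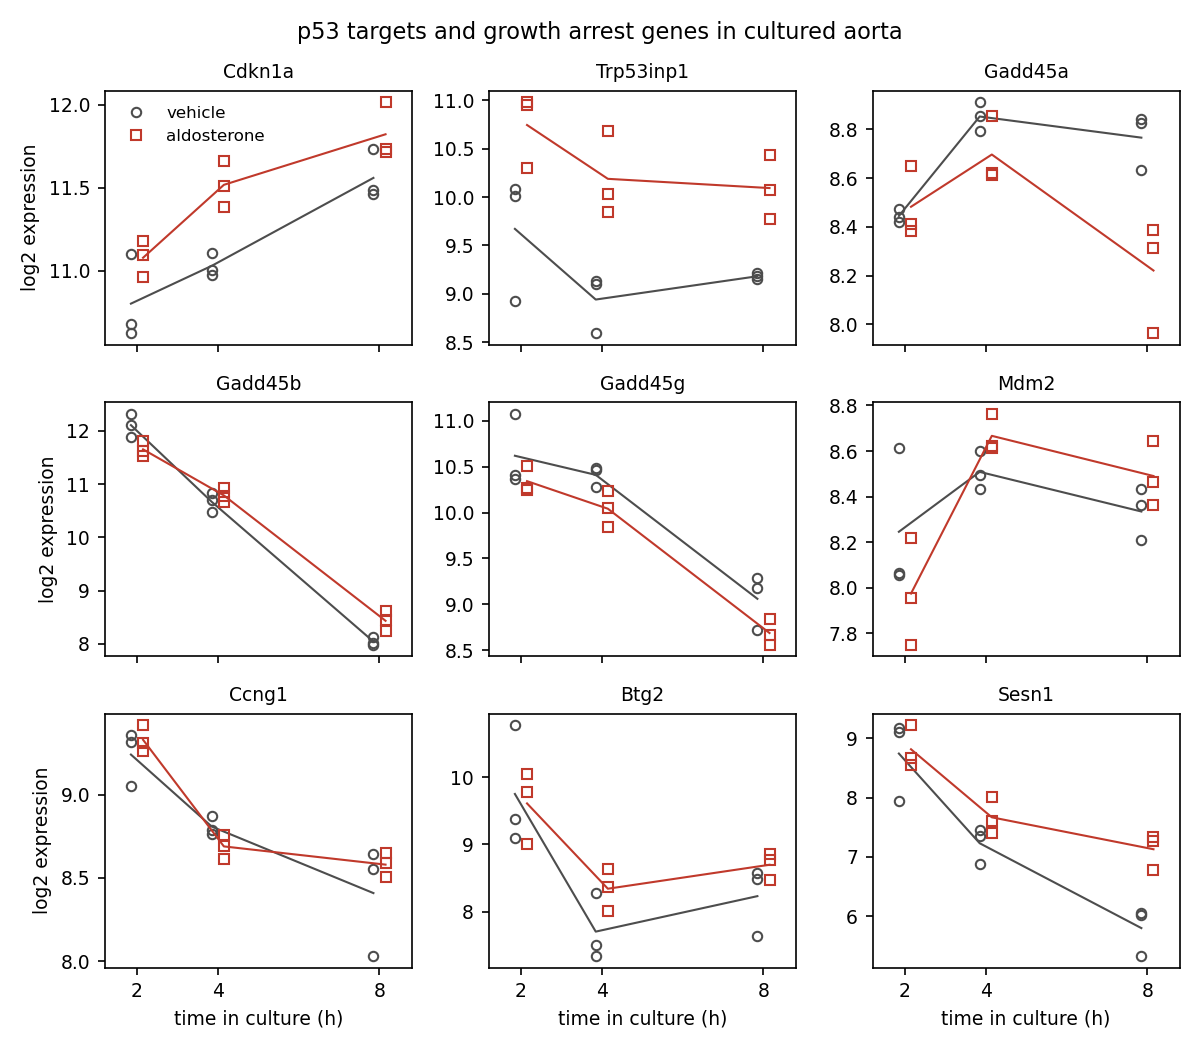
Log2 expression (y axis, scaled for each gene) against hours in culture (x axis) for the 9 genes in each of the 18 samples. Circles are vehicle and squares aldosterone pools, shifted slightly sideways, and lines join the means of 3 pools. The 3 aldosterone samples of Trp53inp1 lie above the 3 vehicle samples at every time, and those of Sesn1 separate from vehicle at 8 h.

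Trp53inp1 encodes a stress-induced protein that promotes the phosphorylation of p53 and takes part in autophagy. In replicates 1, 2 and 3 its vehicle levels were 8.92, 10.08 and 10.01 at 2 h, 9.13, 8.59 and 9.10 at 4 h, and 9.15, 9.18 and 9.21 at 8 h. With aldosterone they were 10.98, 10.95 and 10.30 at 2 h, 10.04, 9.85 and 10.68 at 4 h, and 10.07, 10.44 and 9.77 at 8 h. The 3 aldosterone samples lay above the 3 vehicle samples at each time. The differences were 1.07, 1.25 and 0.91 ± 0.28, none of them called alone (adjusted p = 0.203, 0.121 and 0.275). Their average was 1.08 ± 0.16 (adjusted p = 0.00129), and it was called in all 27 alternative settings tried. Without vehicle 2 h replicate 1, the lowest of its group by more than 1 log2 unit, the difference at 2 h dropped to 0.70 (adjusted p = 0.195), the average was 0.95, and those at 4 and 8 h, unchanged in size, were called (adjusted p = 0.0107 and 0.0451). A second, dimmer probe set of Trp53inp1 gave 0.34 ± 0.12 on average (adjusted p = 0.355).

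Cdkn1a encodes p21, an inhibitor of cyclin-dependent kinases and the best known arrest gene under p53. Its vehicle levels were 11.10, 10.62 and 10.68 at 2 h, 10.98, 11.11 and 11.00 at 4 h, and 11.73, 11.49 and 11.46 at 8 h. With aldosterone they were 11.09, 10.96 and 11.18 at 2 h, 11.51, 11.66 and 11.39 at 4 h, and 11.72, 11.73 and 12.02 at 8 h. The groups did not overlap at 4 h, and at 2 and 8 h the highest vehicle sample, replicate 1 in both cases, reached into the aldosterone range. The average difference was 0.34 ± 0.08 (adjusted p = 0.0307), made of 0.28, 0.49 and 0.26 ± 0.13 at 2, 4 and 8 h, none of which was called alone. This average was called in 12 of 27 alternative settings, and it lost its call in 12 of the 18 fits that left out 1 sample, with values from 0.31 to 0.39 over those fits. The call stayed only without replicate 1 of vehicle at 2 or 8 h, replicate 2 of aldosterone at 2 h, replicate 2 of vehicle at 4 h, replicate 3 of aldosterone at 4 h or replicate 1 of aldosterone at 8 h. Without vehicle 2 h replicate 1 the difference at 2 h was 0.43 (adjusted p = 0.105) and that at 4 h was called (adjusted p = 0.0398). The other probe set of Cdkn1a, whose suffix marks that it can match several transcripts, gave 0.53 ± 0.15 on average and was not called (adjusted p = 0.154). The probe sets standing for Gadd45g, Mdm2 and Ccng1 carry the same suffix (_a_at), and the one standing for Sesn1 ends in _s_at.

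Sesn1 encodes sestrin 1, a stress-induced protein that restrains the growth kinase mTORC1. At 8 h its vehicle levels were 6.06, 6.02 and 5.33 and its aldosterone levels 7.27, 7.34 and 6.78, with no overlap. At 4 h vehicle lay at 7.36, 7.46 and 6.87 and aldosterone at 7.60, 8.01 and 7.40, and at 2 h vehicle lay at 7.94, 9.17 and 9.11 and aldosterone at 8.67, 9.22 and 8.55. In this brightest set of Sesn1 the groups thus overlapped at 2 and 4 h. The difference at 8 h was 1.33 ± 0.30, a 2.51-fold rise (adjusted p = 0.0419). At 4 h it was 0.44 (95% interval -0.20 to 1.08) and at 2 h 0.07 (95% interval -0.57 to 0.71). Without vehicle 2 h replicate 1, the lowest of its group, the 2 h difference of Sesn1 turned to -0.33 (adjusted p = 0.621).

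All 3 probe sets of Sesn1 were called higher at 8 h when every probe set that passed the filter was fitted. The second brightest set read 5.31, 5.11 and 5.29 in vehicle and 6.57, 6.54 and 6.28 with aldosterone, a difference of 1.23 ± 0.20 (adjusted p = 0.00352), and the dimmest gave 1.10 ± 0.25 (adjusted p = 0.0374). At 4 h the second brightest set did not overlap either, at 5.71 to 6.70 in vehicle and 6.94 to 7.42 with aldosterone. The dimmest set overlapped at 4 h (5.22 to 6.45 and 6.12 to 6.63). No member was called at 4 h in the fit of every probe set. For the second brightest set the average over times was also called, at 0.73 ± 0.12 (adjusted p = 0.00216), while for the brightest set of Sesn1 it was not, at 0.61 ± 0.18 (adjusted p = 0.148). The call at 8 h for the brightest set held in 12 of 28 alternative settings. It was lost in 11 of the 18 fits without 1 sample: each sample at 8 h ended it when left out, as did replicates 1 and 3 of aldosterone at 2 h, replicates 1 and 2 of vehicle at 4 h and replicate 1 of aldosterone at 4 h, with differences over all 18 fits from 1.09 to 1.5. The 3 probe sets share the gene and the samples, so they are no separate replicates.

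**Figure D2:**
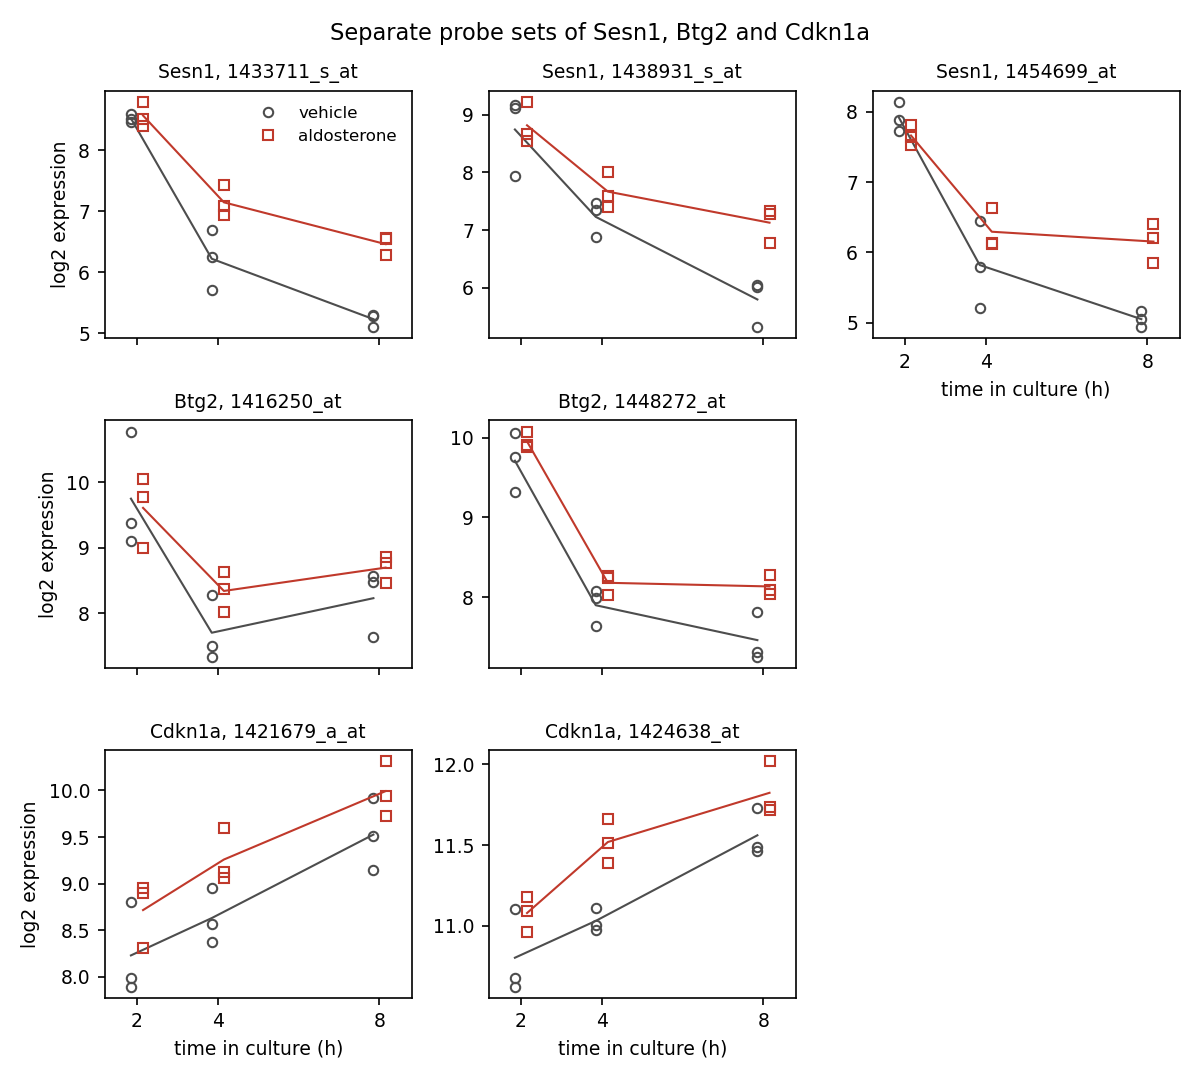
Log2 expression (y axis) against hours in culture (x axis) for each probe set of Sesn1, Btg2 and Cdkn1a, in all 18 samples. Circles are vehicle, squares aldosterone, and lines join means of 3 pools. In all 3 Sesn1 probe sets the aldosterone samples lie above the vehicle samples at 8 h.

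The summed adipocyte markers differed between treatments at 8 h, the time of the Sesn1 call. Marker sums, here and below, are the log2 of added unlogged values, so the brightest genes weigh most. For adipocytes these are Fabp4, Lpl and Adipoq. Over the 9 adipocyte genes with a probe set, past the filter or not, the sum ranged from 13.6 to 13.8 in vehicle. With aldosterone it ranged from 14.0 to 14.3. At 4 h the ranges were 13.7 to 14.0 and 13.8 to 14.3, and at 2 h 14.5 to 15.1 and 14.68 to 14.96. Of the 8 adipocyte genes that passed the filter, which leaves out Plin1, Lep and Cfd, none was called at 8 h in limma. Among these 8, 2 had an unadjusted p under 0.05, as did 444 of all 7092 genes tested. Summed smooth muscle markers at 8 h ranged from 15.2 to 15.5 in vehicle and 15.1 to 15.4 with aldosterone. Of the 9 macrophage markers past the filter, Mrc1 alone was called at 8 h, higher by 1.27 ± 0.28 with aldosterone (adjusted p = 0.0335). The sum over all 11 listed macrophage genes ranged from 9.52 to 10.19 in vehicle and 9.82 to 10.01 with aldosterone. The part of any of these in the results was not tested.

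Gadd45a encodes a damage-induced protein that binds PCNA and the mitotic kinase Cdk1. At 8 h its vehicle levels were 8.84, 8.82 and 8.63 and its aldosterone levels 7.96, 8.39 and 8.31, with no overlap. Earlier the groups overlapped, at 8.42 to 8.47 in vehicle and 8.38 to 8.65 with aldosterone at 2 h, and at 8.79 to 8.91 and 8.61 to 8.86 at 4 h. Gadd45a fell by 0.55 ± 0.13 at 8 h (adjusted p = 0.0489). That call sat at the threshold. It held in 6 of 28 alternative settings, and of the 18 fits without 1 sample only the one without vehicle 2 h replicate 1 kept it. The widest move was without aldosterone 8 h replicate 1, at -0.42 (adjusted p = 0.331).

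Gadd45b and Gadd45g, the other genes of that family, encode proteins that act on stress kinase pathways. Gadd45b read 12.11, 11.89 and 12.32 in vehicle and 11.52, 11.62 and 11.82 with aldosterone at 2 h, so all vehicle samples were higher. At 8 h the order was turned, with 8.02, 8.13 and 7.98 in vehicle and 8.45, 8.23 and 8.61 with aldosterone. Neither difference was called: -0.46 ± 0.13 at 2 h (adjusted p = 0.233) and 0.39 ± 0.13 at 8 h (adjusted p = 0.378). The test of a difference between times was not past the threshold for Gadd45b either (adjusted p = 0.271). Gadd45g samples did not overlap at 4 h, with 10.47, 10.48 and 10.28 in vehicle and 9.84, 10.24 and 10.05 with aldosterone. Its differences were -0.28, -0.37 and -0.37 ± 0.18 at 2, 4 and 8 h, and -0.34 ± 0.10 on average (adjusted p = 0.2). The 2 h value of Gadd45g rested on vehicle 2 h replicate 1, at 11.08 against 10.37 and 10.41, and was -0.05 without it, with an average of -0.26.

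Mdm2, the ligase that marks p53 for destruction, was not called at any time. Its differences were -0.27 ± 0.15 at 2 h, 0.16 ± 0.15 at 4 h and 0.16 ± 0.15 at 8 h, and the 95% interval of the average ran from -0.17 to 0.20. At 4 h its samples did not overlap, by a narrow margin (8.43 to 8.60 in vehicle, 8.61 to 8.76 with aldosterone). The other probe set of Mdm2 overlapped at 4 h (7.72 to 7.85 and 7.58 to 8.04), with a mean of 7.79 in each group. Without vehicle 2 h replicate 1 the 2 h difference of Mdm2 was -0.09 and its average 0.08. Ccng1, cyclin G1, a p53 target that brings a phosphatase to Mdm2, had an average of 0.05 with a 95% interval from -0.12 to 0.22, and its 2 h difference was 0.09, or 0.15 without that sample. For these genes the data leave room for average changes of up to about those bounds.

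Btg2 encodes an antiproliferative protein that recruits the mRNA deadenylase complex. Its probe sets differed in precision and, at 2 h, in the sign of the difference. The brighter one varied within groups (at 8 h 8.48, 8.57 and 7.64 in vehicle and 8.47, 8.77 and 8.85 with aldosterone) and gave 0.47 ± 0.38. At 2 h it gave -0.14, which turned to 0.37 without vehicle 2 h replicate 1, and the average went from 0.32 to 0.49, none of them called. The other set had 2 h means of 9.71 in vehicle and 9.95 with aldosterone. In the other set the 8 h samples did not overlap, at 7.81, 7.32 and 7.25 in vehicle and 8.04, 8.09 and 8.27 with aldosterone, a difference of 0.67 ± 0.18 that was not called (adjusted p = 0.128).

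**Figure D3:**
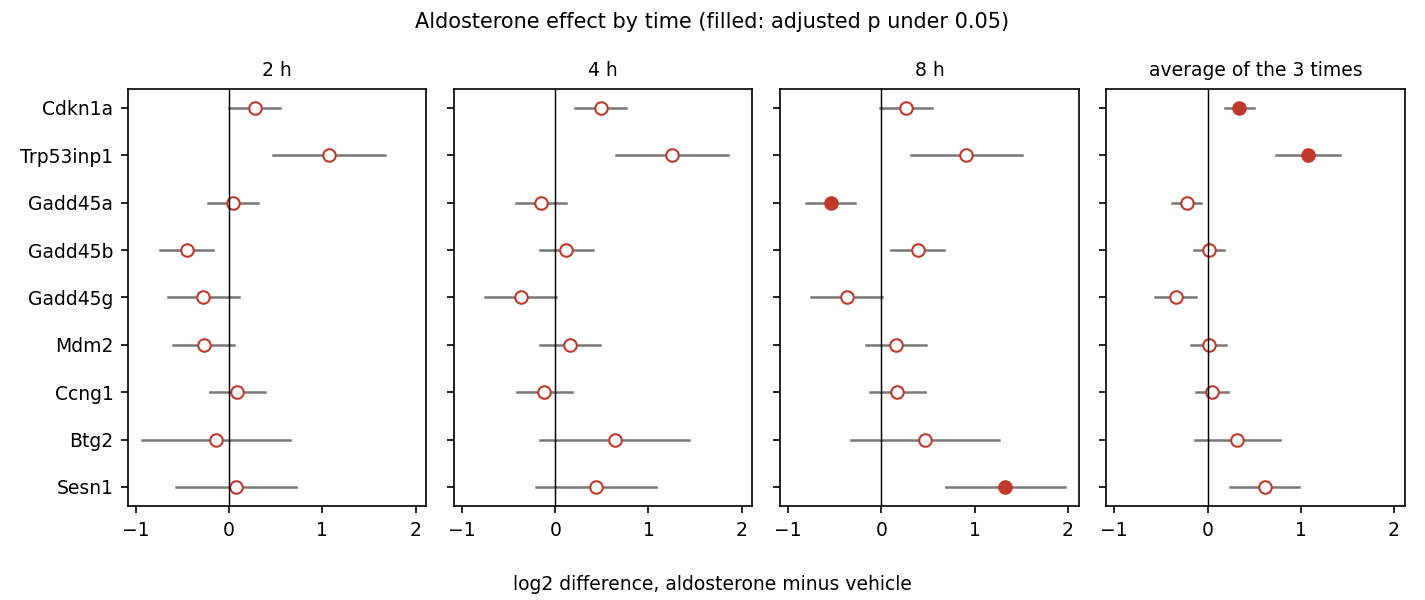
Log2 difference, aldosterone minus vehicle (x axis), for the 9 genes at 2, 4 and 8 h and averaged over times, with 95% intervals from the fit. Filled points have an adjusted p under 0.05: Gadd45a and Sesn1 at 8 h, and Cdkn1a and Trp53inp1 on average.

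Whether the effect of aldosterone differed between times was asked with an F test. None of the 9 genes was called, against 0.155% of all genes tested. An unadjusted p under 0.05 in limma was found for 3 of them (Gadd45a, Gadd45b and Sesn1) and for 420 of all 7092 genes. For Sesn1 the adjusted p was 0.751 and for Gadd45a 0.67, or 0.151 and 0.343 without vehicle 2 h replicate 1. The calls at 8 h alone therefore do not show that these effects differ from those at 2 or 4 h.

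Time in culture gave more calls than aldosterone did, among these genes and over all genes tested. Gadd45b, Gadd45g, Btg2 and Sesn1 fell by the most. In vehicle from 2 to 4 h, 1 of the 9 rose and 5 fell, where 40.2% of all genes tested were called. From 4 to 8 h, 1 rose and 4 fell, against 37.7%. With aldosterone, 2 rose and 4 fell from 2 to 4 h, against 38.6%, and 0 rose and 3 fell from 4 to 8 h, against 37.5%. Beside those shares the counts do not set the 9 genes apart. The median of the 9 in vehicle was -0.43 from 2 to 4 h and -0.17 from 4 to 8 h, beside -0.13 and 0.03 over all genes. Over the same hours the summed fibroblast markers in vehicle went from between 15.2 and 15.3 at 2 h to between 13.8 and 14.2 at 8 h, and the macrophage markers from between 10.9 and 11.7 to between 9.5 and 10.2. The smooth muscle sum went from between 15.8 and 16.2 to between 15.2 and 15.5. The adipocyte sum went from between 14.5 and 15.1 to between 13.6 and 13.8, and the endothelial sum from between 10.9 and 11.7 to between 10.6 and 10.7. The part of these markers in the results was not tested.

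The all-gene median of -0.13 from 2 to 4 h in vehicle depends on scaling. It was -0.03 after a second quantile normalization and -0.001 after median centring, and the share of calls that were higher was 36.4%, 44.6% and 49.3% in turn. At 2 h, aldosterone against vehicle, that share rests on few calls. It was 60% (3 of 5) in the deposited scaling, 87.5% (7 of 8) after quantile normalization and 83.3% (10 of 12) after centring. Among the 9 genes, the split in vehicle from 2 to 4 h went from 1 higher and 5 lower to 3 higher and 4 lower after quantile normalization and to 3 and 3 after centring. Cdkn1a and Mdm2 were then called higher in both, Trp53inp1 lost its call in both and Ccng1 after centring. At 8 h, aldosterone against vehicle, Sesn1 lost its call under both scalings and Gadd45a under centring. No called difference of the 9 genes changed sign in any setting.

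Gadd45b had the widest course. Its vehicle samples lay between 11.89 and 12.32 at 2 h, between 10.48 and 10.82 at 4 h and between 7.98 and 8.13 at 8 h, with no overlap. It fell by 1.44 ± 0.13 and then by 2.62 ± 0.13 in vehicle (adjusted p = 4.49e-07 and 8.34e-10). With aldosterone it fell by 0.87 ± 0.13 and by 2.35 ± 0.13 (adjusted p = 0.000104 and 2.48e-09). A second Gadd45b probe set fell in the same 4 comparisons, and the remaining one was below the filter in all 18 samples.

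Gadd45g held between 10.28 and 11.08 in vehicle up to 4 h and lay between 8.72 and 9.29 at 8 h. Its change from 2 to 4 h in vehicle was -0.21 ± 0.18 and not called, and it turned to 0.02 without vehicle 2 h replicate 1. It fell by 1.35 ± 0.18 from 4 to 8 h in vehicle (adjusted p = 2.04e-05) and by 1.35 ± 0.18 with aldosterone (adjusted p = 1.95e-05). Gadd45a went another way: it rose by 0.41 ± 0.13 in vehicle from 2 to 4 h (adjusted p = 0.0169), and with aldosterone it fell by 0.48 ± 0.13 from 4 to 8 h (adjusted p = 0.00699). The rise in vehicle was lost without vehicle 4 h replicate 1 (0.38, adjusted p = 0.061).

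Btg2 and Sesn1 were highest at 2 h. Btg2 went from 10.78, 9.37 and 9.10 at 2 h in vehicle to 7.34, 8.27 and 7.50 at 4 h, and from 10.05, 9.0 and 9.78 to 8.64, 8.37 and 8.02 with aldosterone. Neither pair of groups overlapped, and Btg2 fell by 2.05 ± 0.38 and 1.27 ± 0.38 (adjusted p = 0.000457 and 0.0139). Without aldosterone 2 h replicate 1 or aldosterone 4 h replicate 3 the second of these was -1.05 or -1.11 and not called. Its other probe set fell by 1.81 and 1.77. Sesn1 fell by 1.51 ± 0.30 from 2 to 4 h in vehicle and by 1.43 ± 0.30 from 4 to 8 h (adjusted p = 0.000909 and 0.00136). Without vehicle 2 h replicate 1 the falls from 2 to 4 h in vehicle were -1.54 for Btg2 and -1.91 for Sesn1, both still called. With aldosterone it fell by 1.15 ± 0.30 from 2 to 4 h (adjusted p = 0.00688), and from 4 to 8 h the change was -0.54 ± 0.30 and not called.

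Cdkn1a was the only one of the 9 that was called higher in each arm at some step. It rose by 0.53 ± 0.13 in vehicle from 4 to 8 h (adjusted p = 0.00411) and by 0.44 ± 0.13 with aldosterone from 2 to 4 h (adjusted p = 0.0136). The latter was not called without aldosterone 2 h replicate 2 or aldosterone 4 h replicate 2 (0.38 and 0.37). Mdm2 rose by 0.69 ± 0.15 with aldosterone from 2 to 4 h (adjusted p = 0.00212), from 7.96, 8.22 and 7.75 to 8.62, 8.61 and 8.76. Its other probe set moved less, from a mean of 7.47 at 2 h to 7.79 at 4 h with aldosterone. In vehicle Mdm2 changed by 0.26 ± 0.15 and was not called, but without vehicle 2 h replicate 1, its highest 2 h sample, the change was 0.45 (adjusted p = 0.0114). The same omission gave 0.38 for Cdkn1a in vehicle from 2 to 4 h (adjusted p = 0.0129), against 0.23 with all samples. With aldosterone from 4 to 8 h the change of Cdkn1a was 0.30 ± 0.13 and not called with all samples. Without vehicle 2 h replicate 1 it was called higher (adjusted p = 0.0197).

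Ccng1 fell by 0.43 ± 0.14 and 0.40 ± 0.14 in vehicle (adjusted p = 0.0204 and 0.0317) and by 0.64 ± 0.14 with aldosterone from 2 to 4 h (adjusted p = 0.0018). The second fall rested on vehicle 8 h replicate 3, without which it was -0.21 (adjusted p = 0.198), and the mean of the Ccng1 probe sets gave -0.11 (adjusted p = 0.504). Leaving out vehicle 4 h replicates 1, 2 or 3 also ended that call, and leaving out vehicle 2 h replicate 3 or vehicle 4 h replicates 1 or 2 ended the first. Trp53inp1 was called lower in vehicle from 2 to 4 h, at -0.73 ± 0.28 (adjusted p = 0.0495), in groups that overlapped through vehicle 2 h replicate 1. That call held in 6 of 28 alternative settings, and 14 of the 18 fits without 1 sample ended it. It stayed only without replicate 3 of aldosterone at 2 h, replicates 2 or 3 of aldosterone at 4 h, or vehicle 2 h replicate 1, where the value was -1.10. With aldosterone from 2 to 4 h the change of Trp53inp1 was -0.56 ± 0.28 and not called with all samples. Without vehicle 2 h replicate 1 it was called lower (adjusted p = 0.0452).

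**Figure D4:**
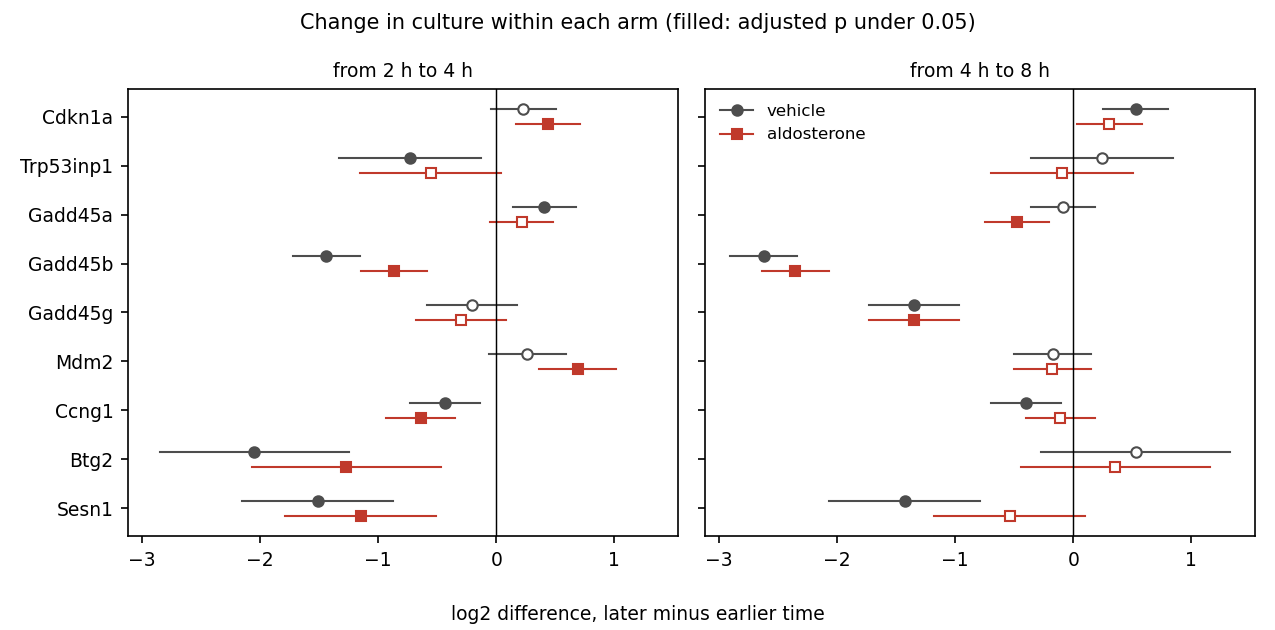
Log2 change within each arm (x axis) from 2 to 4 h and from 4 to 8 h for the 9 genes, with 95% intervals. Circles are vehicle, squares aldosterone, and filled symbols have an adjusted p under 0.05. Gadd45b lies at -2.62 and -2.35 from 4 to 8 h, while Cdkn1a lies above 0 in all 4 comparisons.

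Other genes of the pathway were read in 5 lists. Of p53 and its regulators, 7 of 12 listed genes were measured, and aldosterone changed Hipk2, a kinase that phosphorylates p53. Hipk2 rose by 0.94 ± 0.17 at 8 h (adjusted p = 0.00788), from a mean of 6.08 to 7.02, and by 0.43 ± 0.10 on average (adjusted p = 0.0414). The 8 h call was lost without vehicle 8 h replicate 1 (0.84, adjusted p = 0.0509) or aldosterone 8 h replicate 2 (0.92, adjusted p = 0.0536), and the average was called in 10 of 27 settings. Of the fits without 1 sample, those without replicate 1 of vehicle or aldosterone at 2 h, or replicate 3 of aldosterone at 4 h, kept the average. Of CDK inhibitors and other growth arrest genes, 11 of 14 were measured, and Tob2, of the same antiproliferative family as Btg2, rose by 0.87 ± 0.20 on average (adjusted p = 0.0377), a call held in 8 of 27 settings and, of the fits without 1 sample, only in those without a vehicle sample at 2 h. Of the 8 measured targets of cell death, the 13 of repair, metabolism and signalling and the 10 cyclins and proliferation genes, 0 were called at any time or on average in limma. With an unadjusted p under 0.05 these lists held 0, 0 and 4 genes at 2 h, 0, 0 and 1 at 4 h, and 1, 2 and 1 at 8 h. Over all 7092 genes tested, 782, 267 and 444 had such a p at 2, 4 and 8 h. The median of the cyclins and proliferation genes at 2 h was -0.24, beside -0.07 over all genes.

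In culture the pathway lists held calls in both directions, as all genes did, and their counts stand beside shares of 40.2% of all genes called from 2 to 4 h and 37.7% from 4 to 8 h in vehicle. From 2 to 4 h, 1 of 8 death targets rose and 4 fell: the nuclease gene Aen rose by 2.08, while Ei24 fell by 0.81, Perp by 0.57, Apaf1 by 1.04 and Siva1 by 0.66. Of 13 repair, metabolism and signalling targets 2 rose and 5 fell. Ddit4, an inhibitor of mTORC1, rose by 1.76 and the sestrin gene Sesn2 by 1.37, where Sesn1 had fallen, and Rrm2b, a ribonucleotide reductase subunit, fell by 1.01. Of 11 growth arrest genes 1 rose and 6 fell, among them Gas1 by 1.48, the CDK inhibitor gene Cdkn2c by 1.44 and Klf10 by 1.34. Trp53bp1, which encodes the repair factor 53BP1, fell by 1.05 and was the only one of 7 regulators called. Of 10 cyclins and proliferation genes 0 rose and 3 fell: Ccnd3, Cdk2 and Ccne1.

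From 4 to 8 h in vehicle, 2 of 7 regulators rose, the p53 inhibitor gene Mdm4 by 1.09 and the damage kinase gene Atm, which had a vehicle mean of 3.74 at 4 h, under the filter level of 4, so that no size is given for its rise. Among growth arrest genes 1 rose and 6 fell, with Tob1 falling by 1.96, Klf4 by 1.47 and Tob2 by 1.38, and Ddit3, a stress transcription factor gene, rising by 1.14. The death receptor gene Fas fell by 1.08 and Aen rose by 0.74. Of 13 repair, metabolism and signalling targets 1 rose and 2 fell, and of 10 cyclins and proliferation genes 3 rose and 1 fell.

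The tested genes whose course over the 18 samples was nearest to that of a member were found by the root mean square (RMS) difference of mean-centred log2 values, for the 6 members whose group means ranged over at least 1. For Gadd45b these were Peg3, Id2 and Sfrp2, with an RMS difference of 0.29 for Peg3 against a spread of 1.54 in Gadd45b itself. For Gadd45g they were Serpinb9, Srf and Pim1 (0.23 for the first, against 0.75), for Cdkn1a Psmc5, Usp47 and Tmem115 (0.16, against 0.38) and for Btg2 Ech1, Phyh and 0610012G03Rik (0.34, against 0.86). For Sesn1 they were Aldh6a1, Map3k8 and Spon1 (0.41, against 1.09). Trp53inp1 had no close match: its nearest genes, Resf1, Ndufc2 and Cdo1, lay at 0.49 and above, against a spread of 0.70. None of these nearest genes was itself a member.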

How the data were processed

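The deposited values are log2 expression made by the authors with GCRMA, per the submitters' processing notes, and its version is not given in the sources used here. Mouse aorta RNA was hybridised to 18 arrays of 1 colour, 3 in each of 6 groups, and the number of arrays limits precision. Single-gene probe sets above 4 in at least 3 samples were kept (11236), the brightest standing for each of 7092 genes. The R package limma (3.58.1, under R 4.3.3) fitted 6 group means. Its prior followed the intensity trend, 12 residual degrees of freedom remained, and the script was tested on simulated data. Benjamini-Hochberg adjustment ran over 7092 genes at 0.05 for each of 9 comparisons. Named were all members, list genes past the threshold (of more than 4, mainly those with the smallest p; others named were chosen after their values were seen) and the 3 nearest profiles of members ranging over at least 1. The members and lists were chosen with earlier results of these data known. Nothing in the sources says how the pools of a group differ in culture or day, so p-values measure the spread between these pools. Samples of the same replicate number showed no clear likeness: over 45 same-number pairs, r ran from -0.19 to 0.28 and 6 were over 0.1. With 3 samples in each group, this cannot show whether the pools were paired. Alternatives were other scalings, priors, filters, probe set rules, array weights, a replicate block, fits of only the groups compared, and leaving out each sample. Promoters and gene symbols came from RefSeq tables on GRCm38.p6.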

Additional observations from a re-analysis of the deposited data

How the results depend on the processing

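Of 81 differences of the 9 genes, 24 were called, and no called value changed sign in any setting. Apart from the tests of a difference between times, 11 others changed sign in at least 1. The members called for aldosterone against vehicle at 4 h numbered 0, but 2 with array weights and 0 to 2 leaving out 1 sample, 2 being the count without vehicle 2 h replicate 1. At 8 h the count of 2 became 1 after quantile normalization again and 1 with a replicate block, 0 with median centring, with a prior without intensity trend, with no filter and with only the groups compared, 4 with array weights, and 0 to 3 leaving out 1 sample. The average over times went from 2 to 1 with a prior without intensity trend, to 1 with no filter and to 4 with array weights, and to between 1 and 2 leaving out 1 sample. The difference between times went from 0 to 1 with array weights. In vehicle from 2 to 4 h the count of 6 became 3 with only the groups compared, 8 with array weights, 5 with the replicate block and 3 to 8 leaving out 1 sample, 3 without vehicle 4 h replicate 1 and 8 without vehicle 2 h replicate 1. With aldosterone from 4 to 8 h it became 5 when all probe sets were fitted. Whether replicate numbers mark paired pools is not known, and 7 of 18 samples correlated best with their own number. The block ended the calls of Gadd45a at 8 h (adjusted p = 0.0571), of Trp53inp1 in vehicle from 2 to 4 h (adjusted p = 0.0624) and of Hipk2 on average (adjusted p = 0.0681). It ended no other call of the 9 genes. The cause of these changes was not tested. Over all genes, the 5, 17, 71 and 78 calls for aldosterone at 2, 4 and 8 h and on average ranged over the settings from 0 to 54, 5 to 42, 33 to 222 and 53 to 260, each highest with array weights, and the 11 for the difference between times from 8 to 29. In vehicle from 2 to 4 h the 2852 calls ranged from 1331 with only the groups compared to 4100 with all probe sets.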
